A study of Mus musculus with 16 samples.

Results

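Early nephron patterning was followed through 9 marker genes, Lhx1, Cdh6, Sox9, Pou3f3, Irx1, Irx2, Irx3, Irx5 and Npy, in whole embryonic kidneys that had lost the histone methyltransferases Ezh2 and Ezh1 in graded combinations. The members were named as genes, and every non-control probe whose accession belongs to one of them was taken. This gave 11 of the 56605 distinct probes on the array, with 2 probes each for Cdh6 and Sox9 and 1 for the other genes. All 9 of the 22911 named genes on the array passed the filter on low signal, which asked for a probe well above background in the Cy5 channel on at least 4 of the 16 arrays, and so belonged to the 15646 genes tested.

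Kidney pairs of C57BL/6 embryos at embryonic day 17.5 were profiled on Agilent arrays with 2 dyes, 4 arrays for each of 4 genotypes. The control group is labelled wild type. In the Ezh2-KO group both Ezh2 alleles were conditionally deleted in Six2-positive nephron progenitors and Ezh1 was intact, in the Ezh1-het group 1 germline Ezh1 allele was lost as well, and in the double knockout both were. The Ezh2 deletion was aimed at the nephron lineage, and whole kidneys also hold ureteric, stromal and vascular cells outside it, whereas a germline Ezh1 allele is lost in every cell type; the Cre line is not given in the sources used here. Each array set its sample in Cy5 against RNA of control 1 in Cy3, with no dye swap, so every value below is a log2 ratio to that 1 kidney sample, and the array of control 1 compared its RNA with itself. The series calls the samples biological replicates.

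Ezh2 and Ezh1 are the alternative catalytic subunits of Polycomb repressive complex 2, which methylates lysine 27 of histone H3 at silent genes, mostly at promoters rich in CpG. In the kidney, Six2-positive progenitors of the cap mesenchyme are induced to form the renal vesicle, which lengthens into comma- and S-shaped bodies and is patterned along its axis into podocyte, proximal, loop and distal fates. Lhx1, a LIM homeodomain factor, is switched on in the renal vesicle and is needed for its patterning, Pou3f3 (Brn1) and the Iroquois factors Irx1, Irx2 and Irx3 are known from the middle segment of the S-shaped body that gives rise to the loop of Henle and distal tubule, and Cdh6 is a cadherin of the early epithelium and the proximal precursors. Sox9 is expressed in ureteric tips and in early nephron epithelium. Npy encodes neuropeptide Y, a secreted peptide best known as a transmitter of sympathetic neurons.

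RefSeq promoters (assembly GRCm38.p6) were available for 6 of the 9 members, Cdh6, Irx2, Irx3, Lhx1, Npy and Pou3f3. The 250 bases before the start site are shown, 5′ to 3′, for Npy, which passed the test in all 3 comparisons with control, for Irx2 and Irx3, which varied together over the arrays, and for Lhx1, which passed in none. Capitals mark CpG dinucleotides, the sequence feature of promoters at which Polycomb repressive complex 2 is mostly found.
Npy, chr6:49822460-49822709, plus strand: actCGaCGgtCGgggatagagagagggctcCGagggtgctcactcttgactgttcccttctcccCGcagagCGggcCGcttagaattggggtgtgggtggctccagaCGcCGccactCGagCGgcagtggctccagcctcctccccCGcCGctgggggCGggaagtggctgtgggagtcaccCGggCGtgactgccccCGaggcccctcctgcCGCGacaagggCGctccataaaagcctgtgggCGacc
Irx2, chr13:72628570-72628819, plus strand: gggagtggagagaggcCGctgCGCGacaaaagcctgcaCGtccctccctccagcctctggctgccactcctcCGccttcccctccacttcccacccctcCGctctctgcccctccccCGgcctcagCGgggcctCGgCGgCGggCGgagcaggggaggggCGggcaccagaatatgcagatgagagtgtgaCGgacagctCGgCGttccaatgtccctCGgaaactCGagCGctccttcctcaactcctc
Irx3, chr8:91801655-91801904, minus strand: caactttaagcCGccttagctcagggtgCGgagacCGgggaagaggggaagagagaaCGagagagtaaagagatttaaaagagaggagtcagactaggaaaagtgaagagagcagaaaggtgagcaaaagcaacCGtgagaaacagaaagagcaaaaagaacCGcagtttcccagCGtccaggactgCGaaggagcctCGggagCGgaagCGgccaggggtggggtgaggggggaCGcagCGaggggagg
Lhx1, chr11:84525535-84525784, minus strand: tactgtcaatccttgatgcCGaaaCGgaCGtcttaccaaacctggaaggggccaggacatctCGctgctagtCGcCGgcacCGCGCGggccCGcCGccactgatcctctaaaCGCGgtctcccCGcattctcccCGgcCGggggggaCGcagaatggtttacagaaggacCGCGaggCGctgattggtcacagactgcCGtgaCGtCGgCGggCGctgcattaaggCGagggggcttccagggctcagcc

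The Npy window held 21 CpG dinucleotides, that of Irx2 19, that of Irx3 13 and that of Lhx1 26. The windows of Pou3f3 and Cdh6 held 15 and 6. Over 32851 RefSeq promoter windows of the same length the median was 6, with quartiles of 2 and 16, so Cdh6 lay at the median and the other 5 above it. The letters ATCAAAG, a TCF/LEF core, were found on either strand in 3.21% of all windows and in none of the 6, and GTGGGAA, an RBPJ core, in 5.42% of all windows and once among the 6, in Irx2. These matches describe letters in a window and not sites. In the RefSeq gene order Irx1, Irx2 and Irx4 follow each other on chromosome 13, and Irx3, Irx5 and Irx6 on chromosome 8, the 2 Iroquois clusters of the mouse.

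The targeted genes followed the labels. Ezh1 averaged -0.08 ± 0.26 (SD, n = 4) in controls, 0.05 ± 0.33 in Ezh2-KO kidneys, -1.13 ± 0.20 where 1 Ezh1 allele was lost and -4.55 ± 0.08 where both were. One of 5 Ezh2 probes, A_51_P248067, averaged 0.09 in controls and -3.32, -3.43 and -3.09 in the 3 Ezh2-deficient groups, whereas the brightest averaged 0.11 in controls and -0.17, -0.23 and -0.11 in the mutant groups; where the probes lie relative to the deleted part was not examined. On the first principal component, which carried 36.1% of the variance, control 3 and Ezh2-KO 1 lay at one end (37.3 and 31.4) and Ezh1-het 1 at the other (-28.5). Both of those low arrays matter for the members, and values are given with and without control 3 below. Over all genes, 376 were higher and 106 lower in Ezh2-KO than in control kidneys, 925 and 297 in Ezh1-het, and 580 and 143 in the double knockout; with each array centred on its median in place of loess, the splits became 6668 and 171, 7745 and 292, and 5191 and 173. That centring moved the median difference of all genes from 0.06, 0.05 and 0.01 to 0.41, 0.44 and 0.38. With loess and without control 3, all genes gave 374 higher and 141 lower, 543 and 212, and 585 and 337. The counts without control 3 below stand beside these.

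Npy was higher in every Ezh2-deficient kidney than in any control. Irx5 was so in the Ezh1-het and double-knockout groups, but none of its differences from Ezh2-KO passed. The Irx5 probe was well above background on 1 of 4 controls and met the filter on low signal through the mutant groups. The share of all genes whose arrays separate by group in this way, here and below, was not counted. Npy and Irx5 were the only 2 members to pass the test against control. Because Irx5 met the filter through the groups where it is high, its calls carry no weight as a test. Npy is thus the only member with weight in the counts of called members. In Ezh2-KO kidneys 1 of 9 members was called higher and 0 lower, beside 2.4% of all genes higher and 0.677% lower (called means a limma adjusted p under 0.05 over all 15646 genes). In Ezh1-het kidneys 2 of 9 were higher and 0 lower, beside 5.91% and 1.9% of all genes. In the double knockout 2 of 9 were higher and 0 lower, beside 3.71% and 0.914%. The median difference of the 9 members was 0.27, 0.75 and 0.36 in the 3 comparisons, against 0.06, 0.05 and 0.01 for all genes; without control 3 the members' medians were -0.09, 0.53 and -0.02. The 3 comparisons share the control arrays. Lhx1 and Sox9 passed in no comparison, and Cdh6, Pou3f3, Irx1, Irx2 and Irx3 had high values in all 4 Ezh1-het kidneys but did not pass, with control and Ezh2-KO arrays spread widely. With median centring, under which 7745 of the 15646 genes were called higher in Ezh1-het, 2, 8 and 4 members were called higher, Lhx1 among them in Ezh1-het (0.81, limma adjusted p = 0.035, beside a median of 0.44 for all genes).

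**Figure D1:**
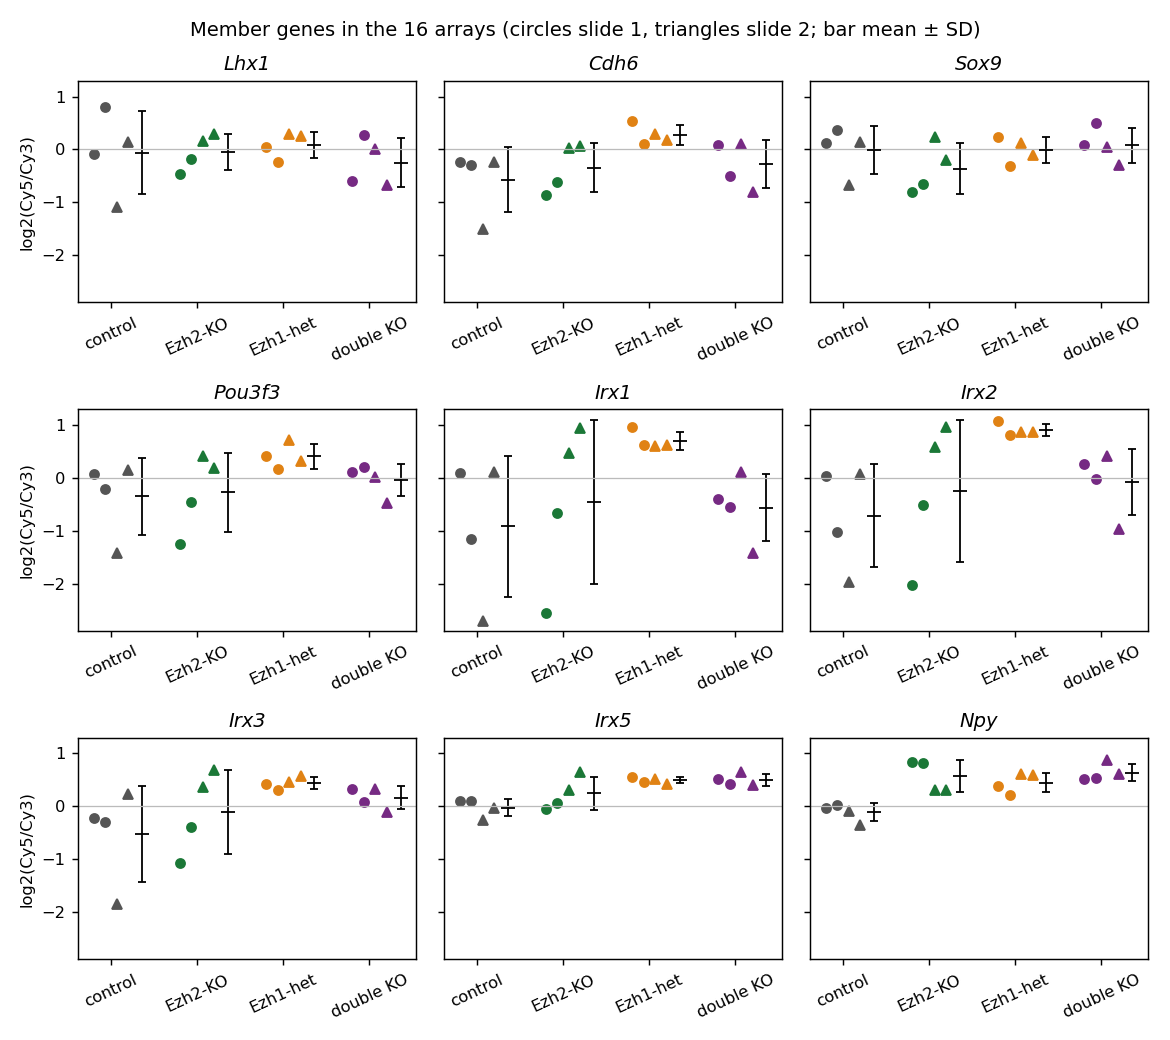
Log2 ratio of Cy5 over Cy3 (vertical axis) of the 9 member genes on 16 arrays, grouped by genotype (4 points each; circles slide 1, triangles slide 2; black bars mean ± SD). Npy lies at 0.21 or above on all 12 Ezh2-deficient arrays and at 0.02 or below on the controls, while Irx1 runs from -2.70 to 0.10 among the controls alone.

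Npy had log2 ratios of -0.03, 0.02, -0.08 and -0.35 in controls 1 to 4. It measured 0.85, 0.82, 0.32 and 0.32 in the Ezh2-KO arrays, 0.39, 0.21, 0.61 and 0.59 in the Ezh1-het arrays, and 0.51, 0.54, 0.88 and 0.62 in the double knockout. The 12 Ezh2-deficient arrays all lay above the highest control, and the 3 mutant groups overlapped one another. Npy rose 1.61-fold in Ezh2-KO kidneys (log2 difference 0.69, SE 0.14, limma adjusted p = 0.0162, n = 4 per group), 1.48-fold in Ezh1-het kidneys (0.56, SE 0.14, limma adjusted p = 0.0255) and 1.68-fold in the double knockout (0.75, SE 0.14, limma adjusted p = 0.00406). The probe was well above background on 16 of 16 arrays.

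The Npy increase in the double knockout held when any 1 array was left out (0.67 to 0.79, limma adjusted p at most 0.0202). The other 2 did not: without Ezh2-KO 2 the Ezh2-KO difference was 0.60 (limma adjusted p = 0.0593), and the Ezh1-het call was lost without control 4 (0.48, 0.0627), Ezh1-het 3 (0.51, 0.0684) or Ezh1-het 4 (0.51, 0.0846). A fit of the Ezh2-KO and control arrays alone also ended the Ezh2-KO call (adjusted p = 0.119). Replicates 1 and 2 of every genotype shared slide 1 and replicates 3 and 4 slide 2. Within slides 1 and 2 the Npy difference was 0.84 and 0.53 in Ezh2-KO, 0.31 and 0.82 in Ezh1-het, and 0.53 and 0.97 in double-knockout kidneys, positive in these 6 values; of the 6, only Ezh2-KO on slide 1 and the double knockout on slide 2 passed the test. From Ezh2-KO, Npy differed by -0.13 in Ezh1-het (95% interval -0.42 to 0.17) and by 0.06 in double-knockout kidneys (-0.24 to 0.36), and neither passed.

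Because Npy is also a product of sympathetic neurons, markers of sympathetic neurons and chromaffin cells were read on the same arrays. Of 11 such genes, 10 were tested, and their mean log2 ratio was -0.04 to 0.13 in controls, 0.19 to 0.35 in Ezh2-KO, 0.22 to 0.30 in Ezh1-het and 0.26 to 0.33 in the double knockout. The mutant arrays thus lay above the controls here as they did for Npy, by a smaller amount. The median differences of these genes from control were 0.18, 0.16 and 0.15, against 0.06, 0.05 and 0.01 for all genes. Of the 11 genes only 3 were well above background on 16 of 16 arrays, so the means include many dim values. Individually, 0 of 10 were called in Ezh2-KO, 1 in Ezh1-het (Chga, a granin of secretory vesicles, 0.74, limma adjusted p = 0.0273) and 1 in the double knockout (Gap43, a growth-cone protein, 0.52, limma adjusted p = 0.0142). Without control 3 these counts were 1, 0 and 2. In 16 fits that each left out 1 array the Chga call held in 10 and the Gap43 call in 15. Th, the rate-limiting enzyme of catecholamine synthesis, differed from control by 0.04, -0.05 and 0.04 and was well above background on 16 arrays, and Dbh was so on 6. The part of this shift in the Npy result was not tested. Markers of adrenal cortex, 4 of 7 tested, had array means between -0.03 and 0.09, and Cyp11a1, Cyp11b1 and Hsd3b1 were well above background on 0 arrays.

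Irx5 encodes an Iroquois homeodomain factor. Its ratios were 0.09, 0.10, -0.26 and -0.02 in controls, -0.05, 0.07, 0.31 and 0.64 in Ezh2-KO, 0.56, 0.46, 0.51 and 0.43 in Ezh1-het, and 0.52, 0.43, 0.64 and 0.40 in double-knockout arrays. The Ezh1-het and double-knockout arrays all lay above the highest control, and the Ezh2-KO arrays overlapped both sides. Its log2 difference from control passed the test in Ezh1-het (0.52, SE 0.12, limma adjusted p = 0.0215) and double-knockout kidneys (0.52, SE 0.12, limma adjusted p = 0.0217). However, 3 of 4 controls were not well above background, so no fold is given and these calls carry no weight as a test. The Ezh2-KO difference was 0.27 (SE 0.12, limma adjusted p = 0.23), and the difference of Ezh1-het from Ezh2-KO was 0.25 (95% interval -0.01 to 0.51).

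The Irx5 probe was near background on many arrays. It was well above background on 1 of 4 control, 3 of 4 Ezh2-KO, 4 of 4 Ezh1-het and 4 of 4 double-knockout arrays, with processed Cy5 intensities of 1.51 to 30.7, so it met the filter on low signal through the mutant groups. The size of its change depended on the background correction: with Agilent's processed signals, to which no offset is added, the log2 differences were 1.76, 2.78 and 3.01 (limma adjusted p = 0.109, 0.0109 and 0.00526). Without control 3, the lowest Irx5 array, the Ezh1-het and double-knockout differences were both 0.44 and missed the threshold (limma adjusted p = 0.0588 and 0.053); leaving out Ezh1-het 1 or 2 ended the first call and double knockout 1 or 3 the second. Within slides 1 and 2 the differences were -0.08 and 0.62 in Ezh2-KO, 0.42 and 0.61 in Ezh1-het and 0.38 and 0.66 in the double knockout, and none of the 6 passed.

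**Figure D2:**
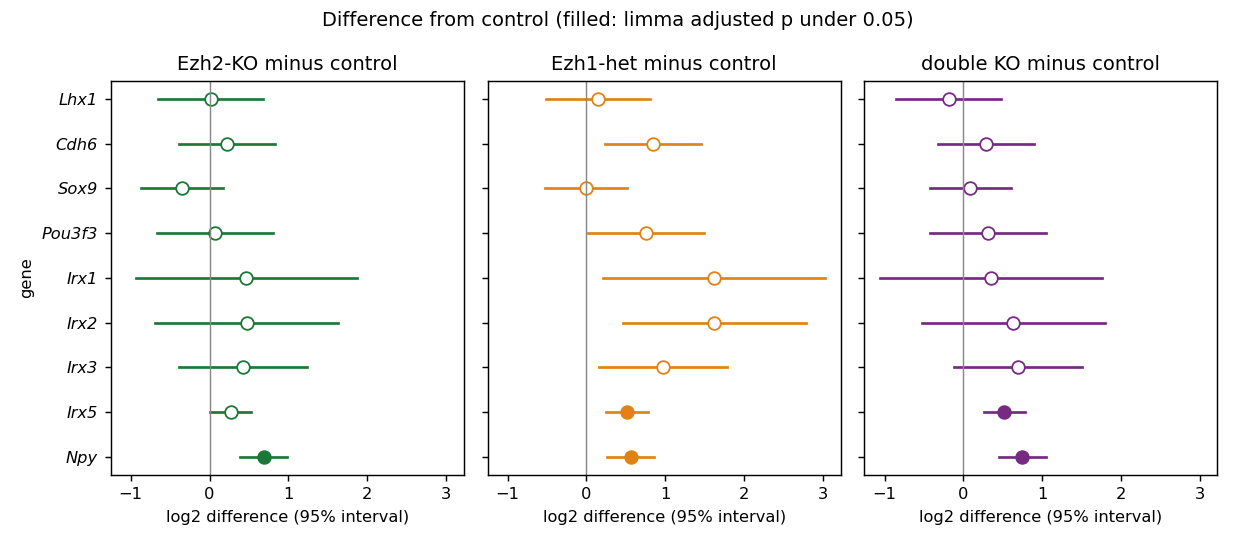
Log2 difference from control with its 95% interval (horizontal axis) for the 9 members in the 3 mutant groups, from 1 limma fit of 16 arrays. Filled points passed the test: Npy in all 3 comparisons, and Irx5 in Ezh1-het and double-knockout kidneys at 0.52 in both. Irx5 met the filter on low signal through the mutant groups, so its calls carry no weight as a test.

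Irx1, Irx2 and Irx3, the Iroquois factors of the middle S-shaped body, had the widest values. Irx1 measured 0.08, -1.15, -2.70 and 0.10 in controls, -2.55, -0.66, 0.47 and 0.94 in Ezh2-KO, 0.96, 0.61, 0.60 and 0.62 in Ezh1-het, and -0.41, -0.54, 0.11 and -1.41 in double-knockout arrays. The 4 Ezh1-het arrays lay close together (SD 0.17, against 1.33 in controls and 1.55 in Ezh2-KO) and above every control and every double-knockout array. The Ezh1-het difference from control was 1.62 (SE 0.66, limma adjusted p = 0.142), a fold of 3.06 that did not pass. In Ezh2-KO and double-knockout kidneys it was 0.47 (SE 0.66, limma adjusted p = 0.698) and 0.36 (SE 0.66, limma adjusted p = 0.842).

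Irx2, its neighbour in the cluster, took the same form, with 0.04, -1.02, -1.97 and 0.08 in controls, -2.03, -0.52, 0.59 and 0.96 in Ezh2-KO, 1.07, 0.80, 0.87 and 0.87 in Ezh1-het, and 0.26, -0.03, 0.42 and -0.98 in the double knockout. Again the 4 Ezh1-het arrays stood above all controls and all double-knockout arrays. How many of all genes separate so was not counted, and 25.4% of them had an unadjusted limma p under 0.05 in Ezh1-het against control. Their difference from control was 1.62 (SE 0.55, limma adjusted p = 0.0791). Irx3, of the other cluster, measured -0.22, -0.30, -1.85 and 0.24 in controls and 0.31 to 0.57 in Ezh1-het arrays, a difference of 0.97 (SE 0.38, limma adjusted p = 0.127). Its Ezh2-KO arrays ran from -1.08 to 0.69 and its double-knockout arrays from -0.11 to 0.34, overlapping the controls.

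Pou3f3, the POU factor of the same segment, measured 0.08, -0.20, -1.42 and 0.16 in controls, -1.26, -0.45, 0.41 and 0.19 in Ezh2-KO, 0.42, 0.16, 0.72 and 0.32 in Ezh1-het, and 0.11, 0.21, 0.02 and -0.48 in double-knockout arrays. The Ezh1-het arrays lay above the controls by narrow margins, with a difference of 0.75 (SE 0.35, limma adjusted p = 0.189). Cdh6 measured -0.24, -0.30, -1.50 and -0.24 in controls, -0.87, -0.61, 0.02 and 0.06 in Ezh2-KO, 0.54, 0.11, 0.29 and 0.18 in Ezh1-het, and 0.08, -0.51, 0.11 and -0.81 in double-knockout arrays. On this probe the Ezh1-het arrays exceeded every control and every Ezh2-KO array, with a difference from control of 0.85 (SE 0.29, limma adjusted p = 0.0789). The dimmer Cdh6 probe gave 0.74 for the same comparison (limma adjusted p = 0.0769 over 34731 probes), and 0.46 and 0.27 in Ezh2-KO and double-knockout kidneys; on it Ezh2-KO 4, at 0.96, lay above all 4 Ezh1-het arrays (0.40 to 0.57).

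The differences of these 5 genes moved with single arrays. Control 3 was among the 2 lowest of 16 arrays for 9 of 9 members and the lowest for 6, and Ezh2-KO 1 was among the 2 lowest for 7. Without control 3 the Ezh1-het differences were 1.02 for Irx1, 1.21 for Irx2, 0.53 for Irx3, 0.40 for Pou3f3 and 0.54 for Cdh6, and none passed (limma adjusted p = 0.315, 0.179, 0.281, 0.426 and 0.175). Those of Irx1 in Ezh2-KO and double-knockout kidneys became -0.13 and -0.24. Without Ezh2-KO 1, which enters the Ezh1-het comparison only through the shared spread, Irx2 passed in Ezh1-het kidneys, and 3 members in place of 2 were called, while all genes gave 1080 higher and 327 lower in place of 925 and 297. In Ezh2-KO kidneys the slides disagreed in sign: on slides 1 and 2 the difference from control was -1.07 and 2.01 for Irx1, -0.78 and 1.72 for Irx2, -0.48 and 1.33 for Irx3, -0.79 and 0.93 for Pou3f3, -0.47 and 0.92 for Cdh6, -0.68 and 0.70 for Lhx1 and -0.98 and 0.28 for Sox9, as for Irx5 above; Npy was positive on both. In Ezh1-het kidneys Irx1, Irx2, Irx3, Pou3f3 and Cdh6 had positive differences on both slides.

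**Figure D3:**
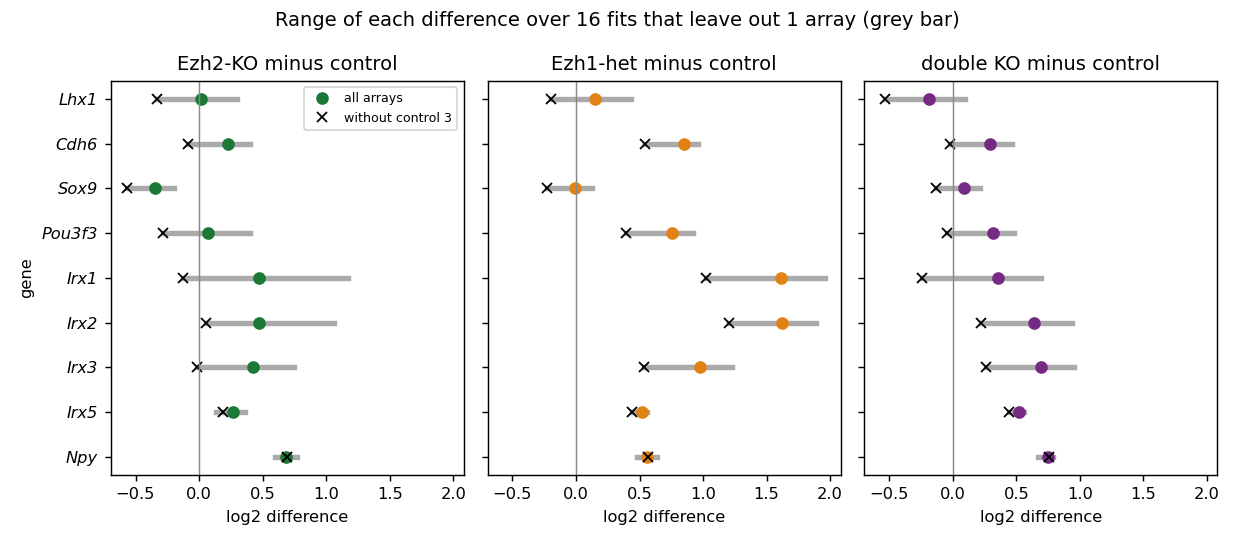
Log2 difference from control (horizontal axis) for each member with all arrays (coloured point), without control 3 (cross) and over 16 fits that each leave out 1 array (grey bar from lowest to highest). Npy keeps its place, whereas the Ezh1-het difference of Irx1 is 1.02 without control 3 and 1.96 without control 4.

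The level of mature tubule RNA varied over the same arrays. The mean log2 ratio of 14 proximal tubule genes was -2.11 on control 3, against -0.29 to 0.42 on the other controls, and -2.28 on Ezh2-KO 1, against -0.96 to 0.26 on the others of its group. That of 16 genes of the loop of Henle and distal tubule was lowest in its group on the same 2 arrays, and stood at -0.86 on Ezh2-KO 1. Irx1 was lowest on these arrays. Double knockout 4 was low in both lists and in Irx1, with -2.52 for the proximal list, -1.11 for the loop and distal list and -1.41 for Irx1. The proximal list and Irx1 parted on other arrays. The list stood at -1.96 on double knockout 2, where Irx1 measured -0.54, and at 0.42 on control 2, where Irx1 was -1.15. In RNA of whole kidneys, fewer cells of a type and less RNA per cell cannot be told apart, and the part of tubule content in the Irx and Pou3f3 values was not tested. Of the proximal genes 0 of 14 were called in any comparison with control (medians -0.45, 0.62 and -1.28). Of the loop and distal genes 0 were called in Ezh2-KO, 1 was higher and 1 lower in Ezh1-het (Cldn16, a tight-junction protein of the thick ascending limb, 0.73; Nos1, of the macula densa, -0.43) and 1 lower in the double knockout (Nos1, -0.41), with medians of -0.01, 0.29 and -0.42. In 16 fits that each left out 1 array the Cldn16 call held in 16, and the Nos1 calls in 11 for Ezh1-het and 6 for the double knockout. Cldn16 was well above background on only 8 of 16 arrays and Nos1 on 11. With Agilent's processed signals the Cldn16 call missed the threshold (limma adjusted p = 0.0579). Without control 3, 7 of 14 proximal and 5 of 16 loop and distal genes were called lower in the double knockout, while of the members Npy alone was called there, as higher. Over all genes that fit called 585 higher and 337 lower, in place of 580 and 143.

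**Figure D4:**
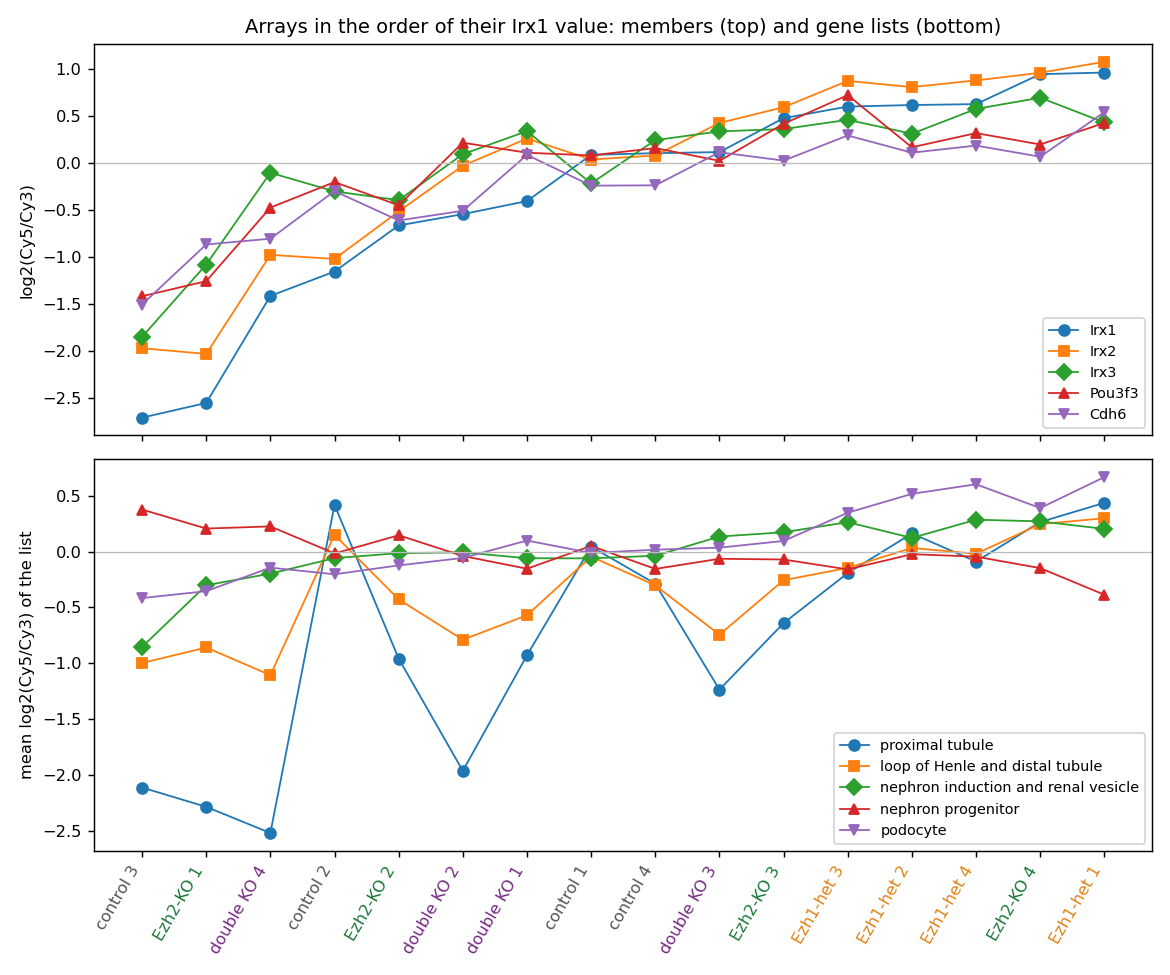
The 16 arrays ordered by their Irx1 log2 ratio (horizontal axis), with 5 members above and the mean log2 ratio of 5 gene lists below (vertical axes). Irx2, Irx3, Pou3f3 and Cdh6 are low at the left and high at the right with Irx1. The proximal tubule list is lowest on double knockout 4 at -2.52, where Irx1 is also low at -1.41.

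Lhx1, the early patterning factor, did not separate the genotypes. It measured -0.08, 0.80, -1.10 and 0.14 in controls, -0.46, -0.18, 0.16 and 0.29 in Ezh2-KO, 0.05, -0.24, 0.29 and 0.25 in Ezh1-het, and -0.60, 0.27, 0.01 and -0.67 in double-knockout arrays. The controls alone spanned more than all mutant arrays. Differences from control were 0.01, 0.15 and -0.19 (SE 0.31), with 95% intervals of -0.65 to 0.68, -0.52 to 0.81 and -0.85 to 0.48. The probe was well above background on 16 of 16 arrays. Without control 3 they were -0.33, -0.20 and -0.53, and none passed. Sox9 measured 0.12, 0.37, -0.67 and 0.13 in controls, -0.81, -0.66, 0.23 and -0.21 in Ezh2-KO, 0.24, -0.32, 0.12 and -0.11 in Ezh1-het, and 0.07, 0.50, 0.04 and -0.30 in double-knockout arrays. All 4 groups overlapped, and differences from control were -0.35, 0.00 and 0.09 (SE 0.24), or -0.21, -0.01 and 0.05 with the other Sox9 probe. Without control 3 they were -0.57, -0.22 and -0.13, and none passed. With median centring the Sox9 difference in Ezh2-KO kidneys turned to 0.11, beside a median of 0.41 for all genes.

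Between the mutant groups 0 of 9 members were called in any comparison. Of all genes, 0.0383% were higher and 0.0192% lower in Ezh1-het than in Ezh2-KO kidneys, 0.639% and 0.275% in the double knockout than in Ezh2-KO, and 0.236% and 0.141% in the double knockout than in Ezh1-het; at an unadjusted p under 0.05 limma counted 1153, 1993 and 2143 genes. From Ezh2-KO to Ezh1-het, Irx1 and Irx2 differed by 1.15 each (limma adjusted p = 0.672 and 0.667), with 2.39 and 2.21 on slide 1 but -0.10 and 0.10 on slide 2. From Ezh1-het to double knockout they differed by -1.26 (95% interval -2.67 to 0.15, limma adjusted p = 0.434) and -0.99 (-2.15 to 0.18, limma adjusted p = 0.467), with all double-knockout arrays below all Ezh1-het arrays. Both passed in a fit of those 8 arrays alone (limma adjusted p = 0.00903 and 0.0275), where the wide control and Ezh2-KO values do not enter the spread and all genes gave 155 higher and 878 lower in place of 37 and 22. The slides gave -1.26 and -1.26 for Irx1 and -0.82 and -1.15 for Irx2. For the other members the double-knockout difference from Ezh1-het was -0.56 (Cdh6), -0.44 (Pou3f3), -0.33 (Lhx1), -0.28 (Irx3), 0.01 (Irx5), 0.09 (Sox9) and 0.19 (Npy).

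In order of group means, control was lowest and Ezh1-het highest for Irx1, Irx2, Irx3, Pou3f3 and Cdh6. Control as the lowest rested on control 3: without it the Ezh2-KO mean lay below control for Irx1, Irx3, Pou3f3 and Cdh6, and of the 5 only Irx2 kept control lowest. For Npy and Irx5 control was lowest and the double knockout highest. Lhx1 was lowest in the double knockout and highest in Ezh1-het, and Sox9 lowest in Ezh2-KO and highest in the double knockout. The range of the 4 group means, divided by the pooled SD within groups, was 3.53 for Npy, 1.85 for Cdh6, 1.83 for Irx2, 1.58 for Irx3, 1.51 for Irx1, 1.35 for Pou3f3, 1.13 for Sox9 and 0.67 for Lhx1. For Irx5 it was 2.84, which includes control values near background. Neighbouring means in these orders lay further apart than the pooled SD between control and Ezh1-het for Npy, between control and Ezh2-KO and between Ezh2-KO and Ezh1-het for Irx5, and between Ezh1-het and the next group for Cdh6, Irx1 and Irx2. For Irx3, Pou3f3, Lhx1 and Sox9 no neighbours did.

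Genes whose pattern over the 16 arrays came closest to each member were found by the root-mean-square difference of mean-centred log2 ratios. Irx1 (SD over arrays 1.15) was nearest to Sim2 at 0.17, Tfap2b at 0.20 and Irx2 at 0.23, and Irx2 to Irx1 at 0.23, Vav3 at 0.24 and Gsta3 at 0.26. Sim2 and Tfap2b are transcription factors, and their Ezh1-het differences from control, 1.84 and 1.75, likewise missed the threshold (limma adjusted p = 0.12 and 0.114). Irx3 was nearest to Emx2 at 0.14, Mapk13 at 0.17 and Krt18 at 0.17, and Pou3f3 to Cldn6 at 0.19, Emx2 at 0.19 and Clic6 at 0.20, so Emx2, a homeobox factor of the early urogenital system, stood near both. Cdh6 came closest to Eva1a, S100a10 and Il1rap (0.13 to 0.15), Sox9 to Epha7, Prom1 and Frem2 (0.14 to 0.19), and Lhx1 to Frem2, Garem1 and Stard4 (0.21 to 0.23). Npy came closest to Slc13a5, Sp6 and Rasa4 (0.16), and Irx5 to Pde10a, Cyp26a1 and Kcnh8 (0.09 to 0.10), and these sets of 3 share no gene with each other or with those of the other members.

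Other genes of the same stage were read from a list of 17 induction and renal vesicle genes, all tested. In Ezh2-KO kidneys 0 were called (median 0.34), in Ezh1-het 3 were higher (median 0.43) and in the double knockout 3 were higher (median 0.28), with 0 lower in any. Fgf8, a growth factor of the renal vesicle that lies upstream of Lhx1, rose by 0.61 in Ezh1-het and 0.66 in double-knockout kidneys (limma adjusted p = 0.0243 and 0.0167). The Fgf8 calls held in 13 and 15 of 16 fits that left out 1 array. Both were lost in fits of the 2 groups alone (limma adjusted p = 0.077 and 0.0837). Lhx1 itself did not pass. Pax8, a paired-box factor of the induced mesenchyme, rose by 0.38 and 0.62 (limma adjusted p = 0.0438 and 0.0025); its double-knockout call held in 16 of 16 fits that left out 1 array and its Ezh1-het call in 6. Dkk1, a secreted Wnt inhibitor, rose by 1.38 in Ezh1-het (limma adjusted p = 0.0353) and Tmem100 by 0.61 in the double knockout (limma adjusted p = 0.0193). These calls held in 10 and 12 of 16 such fits. Without control 3 the counts were 0, 1 and 3, with medians of 0.06, 0.31 and -0.06. Of 12 Notch segmentation genes 11 were tested, and 1 was called, Hey1, a Notch target, higher by 0.50 in Ezh1-het kidneys (limma adjusted p = 0.0363); without control 3, 0 were called there and 1 in the double knockout.

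Genes of the progenitor state went in both directions. Of 13 nephron progenitor genes, 1 was higher and 2 lower in Ezh2-KO, 1 higher and 3 lower in Ezh1-het, and 2 higher and 2 lower in double-knockout kidneys (medians -0.04, -0.22 and -0.03). Cited1, a transcriptional coregulator of the least differentiated progenitors, fell by 0.69, 0.79 and 0.90, and was called in 16 of 16 fits without 1 array in each comparison, but with median centring it measured -0.15, -0.18 and -0.31 and was not called. Crym fell by 0.66, 0.90 and 0.85, the first a call that held in 1 of 16 such fits, and Meox1 by 0.90 in Ezh1-het. With median centring Crym measured -0.09, -0.23 and -0.16 and Meox1 -0.51, and these were not called either. Lypd1 was the gene called higher in Ezh2-KO and Ezh1-het, and 1 of the 2 in the double knockout. It was well above background on all 12 mutant arrays and on no control. Lypd1 thus met the filter on low signal only through the groups where it is high, so its calls carry no weight as a test. Its Cy5 level was at least 1.41-fold, 1.57-fold and 1.76-fold higher, against the higher of the control level and the lowest level measured above background, and its fitted log2 ratios differed by 0.41, 0.51 and 0.67.

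Among 14 paralogs of the members 6 were tested. None was called in Ezh2-KO or Ezh1-het kidneys, and 2 were higher in the double knockout, Lhx2, a LIM homeodomain factor related to Lhx1, and Pou3f1, a close relative of Pou3f3. Lhx2 was not well above background on any of the 12 other arrays and was so on 4 of 4 double-knockout arrays, with a Cy5 level at least 1.7-fold above control and at least 1.85-fold above Ezh2-KO. Its fitted log2 ratios differed by 0.70 and 0.79. Lhx2 met the filter on low signal only through the double knockout, the group where it is high, so its call carries no weight as a test. Pou3f1 rose by 0.60 (SE 0.11, limma adjusted p = 0.00381), and its call held in 16 of 16 fits without 1 array. Their related members did not follow: Lhx1 measured -0.19 and Pou3f3 0.31 in the same comparison, and neither passed. The Iroquois relatives Irx4 and Irx6, neighbours of the members in the 2 clusters, differed from control by 0.04 and -0.16 in the double knockout and were not called.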

How the data were processed

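The deposited files hold median spot and background intensities and processed, dye-normalised intensities; per the file headers and the submitters' processing notes the authors made them with Agilent Feature Extraction 10.7.3.1. The deposited log10 ratio is the log10 of processed Cy5 over Cy3, and the authors' value table holds it rounded (largest difference 0.005, median 0 on all 16 arrays), so scale, centring and direction were known. Median signals were corrected with normexp (offset 50) and loess in limma 3.58.1 under R 4.3.3, giving control spots a weight of 0 and omitting spots marked as outliers (292 to 615 per array; 0 saturated). The design had named mean signals, and the files hold medians.

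Symbols came from RefSeq by unversioned accession: 29339 of 29638 RefSeq mRNA probes matched, and 23611 of 56605 probes stayed unnamed. The brightest probe stood for its gene. All 16 arrays entered 1 lmFit and eBayes fit of 6 two-sided comparisons, adjusted by Benjamini-Hochberg (threshold 0.05), and every adjusted p of a gene is limma's. Between 53.1% (control 2) and 63.4% of probes were well above background, and the 75th percentile of signal over background was 5.21 to 16.6, and the number of arrays limits the precision. A p-value reflects the spread among these kidneys. Tests were checked on simulated data.

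Genes named are the members, their paralogs, called genes of the lists (up to 5 per list and comparison), Ezh1, Ezh2 and the 3 genes nearest each member; Th, Dbh, 3 adrenal genes and Sim2 and Tfap2b values were added after the data were seen. Members and lists were chosen with earlier results of these data known. The lists cover 14 groups beside the members, and alternatives changed normalisation, filter, probe, samples, blocks and weights; single other probes and the repeated list counts were added after seeing the data. Bounds written "at least" use Cy5 levels alone after loess and Aquantile scaling, are open to dye bias and can exceed the fitted ratio.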

Additional observations from a re-analysis of the deposited data

Results flagged for a closer look

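In 44 groups of 4 arrays, 1 for each member probe and genotype, 3 held an array far from the other 3 by Dixon's test, and chance gives about 1 in 20. Both Cdh6 probes picked out control 3: A_52_P17446 measured -1.50 there and -0.30 to -0.24 on the other controls, and A_55_P2067478 measured -1.02 against 0.00 to 0.07. Irx1 measured 0.96 on Ezh1-het 1 against 0.60 to 0.62 on the others of its group, a narrow group in which a small gap stands out.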

How the results depend on the processing

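The number of members called against control (1 for Ezh2-KO, 2 for Ezh1-het, 2 for the double knockout) became 2, 8 and 4 with median centring, 0, 0 and 1 without controls 2 and 3, 1, 0 and 0 within slide 1 and 0, 0 and 1 within slide 2. Calls over all genes also fell without controls 2 and 3, to 67 higher and 11 lower, 187 and 48, and 325 and 125. Slide 1 gave 109 and 53, 109 and 29, and 140 and 89 of all genes. Slide 2 gave 4 and 2, 30 and 7, and 100 and 13. It became 0 in Ezh2-KO from a fit of the 2 groups alone, and 1 in Ezh1-het with Agilent's processed signals and with the authors' value table, where Npy missed the threshold (0.63, limma adjusted p = 0.0519 and 0.0517). Leaving out 1 array gave 0 to 1, 1 to 3 and 1 to 2 members, beside 202 to 515, 487 to 1484 and 441 to 922 of all genes. Between mutants, where 0 were called, the Ezh1-het and Ezh2-KO arrays of slide 1 gave 6 (all genes 685 higher and 194 lower), array weights gave 1 for double knockout against Ezh2-KO (Irx5; all genes 336 and 363), and a fit of 2 groups gave 2 for double knockout against Ezh1-het; the cause was not tested, except that within slides each group has 2 arrays. The replicate block kept 1, 2 and 2 calls. Deviations from the group mean correlated from -0.478 to 0.514 over 24 pairs of same-numbered arrays. Differently numbered arrays were not compared, so these values cannot decide whether the numbers pair samples. Of 1632 member values under the alternatives 91 had the other sign, all of them of differences that were not called. Among the 1632, 25 that were called no longer passed, and 20 that were not called did pass. Counts over all genes ran from 6 to 6839 (Ezh2-KO), 37 to 8037 (Ezh1-het) and 113 to 5364 (double knockout) across the settings that kept or split the arrays, against 482, 1222 and 723. The number of arrays limits the precision.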

Other observations

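Markers of other kidney cells were read beside the members. Of 12 podocyte genes 6 were higher in Ezh1-het kidneys, among them Nphs1, which encodes the slit-diaphragm protein nephrin, by 0.94 (limma adjusted p = 0.0139), and 0 were called in the other 2 mutant groups. Without control 3 the Ezh1-het count was 5, beside 543 of all genes called higher in place of 925. The mean of the podocyte list was 0.35 to 0.67 on the Ezh1-het arrays and -0.42 to 0.02 on the controls, so the group in which Irx1, Irx2, Irx3, Pou3f3 and Cdh6 stood highest was also the one with most podocyte signal; the part of the one in the other was not tested. Of 12 stromal genes, 2 were higher in Ezh2-KO (Meis1 and Ren1), 1 in Ezh1-het and 2 in double-knockout kidneys (Meis1 and Foxd1). Of 13 tested ureteric genes 1 was lower in Ezh1-het (Gfra1, by 0.38 on the log2 scale, written as a difference of -0.38), a call that held in 7 of 16 such fits. Of endothelial, macrophage and erythroid genes (6, 6 and 4 tested) 0 were called against control.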
